A study of Homo sapiens with 7 samples.

Results

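The CD3 chains and the proximal T-cell receptor (TCR) signalling genes were followed as 9 genes of the 60662 in the files, chosen by gene symbol: CD3D, CD3E, CD3G, CD247, LCK, ZAP70, LAT, LCP2 and FYN. Total RNA was sequenced from freshly cultured cells of 2 human T-cell acute lymphoblastic leukaemia lines, PF-382 and MOLT-14, to measure what happens when STAG2 is inactivated; its product is part of cohesin, which folds chromosomes into loops. PF-382 gave 3 libraries with STAG2 knocked out by delivering Cas9 and guide RNA as ribonucleoprotein, and 2 wild-type libraries that received no treatment. MOLT-14 gave 1 library after transduction of STAG2 and 1 after transduction of an empty vector. The labels name no control delivery in the wild-type cells, and they do not say whether a knockout library is 1 clone or a pool, or whether libraries of a group came from separate cultures. P-values therefore measure only the spread between these libraries, which may be technical.

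The TCR has no kinase of its own and signals through the CD3 dimers and the CD247 (zeta) chain, whose cytoplasmic tails carry tyrosine motifs. LCK, with FYN, phosphorylates these motifs, ZAP70 docks on them, and ZAP70 then phosphorylates the adaptors LAT and SLP-76, the product of LCP2, on which phospholipase C gamma and the RAS and actin branches assemble. In thymocytes the same machinery serves the pre-TCR first and the mature receptor later, so these genes are switched on early in the T lineage and T-cell leukaemias often keep them.

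All 9 genes were read in all 7 libraries. CD3E lies on chromosome 11 at 118304545 to 118316175 on the plus strand, CD3D at 118338954 to 118342744 on the minus strand and CD3G at 118344344 to 118355161 on the plus strand (GENCODE 29, GRCh38). These 3 genes form a cluster of 50.6 kb in which the CD3D and CD3G start sites are 1600 bases apart. The other members lie alone: CD247 at chromosome 1, 167430640 to 167518610, minus; LCK at chromosome 1, 32251239 to 32286165, plus; ZAP70 at chromosome 2, 97713560 to 97739862, plus. LAT is at chromosome 16, 28984826 to 28990783, plus, LCP2 at chromosome 5, 170246237 to 170298227, minus, and FYN at chromosome 6, 111660332 to 111873452, minus. LAT alone among the members had counts that were not whole in 7 of 7 libraries. It overlaps AC109460.3 on the same strand, to which 85.06 to 301.39 counts were assigned, so its values depend on how shared reads were split.

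The promoter windows below belong to LCP2, the member called in PF-382 knockout cells, and to CD3D and LCK, which were called between the lines. LAT was called between the lines as well, but its counts rest on shared reads, and its 2 windows, with 1 GGAAG each, are not shown. Each is the 250 bases upstream of a RefSeq start site in GRCh38.p14, given 5′ to 3′ on the strand of the gene, with each GGAAG, the core that ETS factors bind, or its reverse complement CTTCC in capitals. RefSeq windows were held for 7 of the 9 members, and none is shown for CD3E or CD3G.
LCP2, chr5:170297778-170298027, minus strand: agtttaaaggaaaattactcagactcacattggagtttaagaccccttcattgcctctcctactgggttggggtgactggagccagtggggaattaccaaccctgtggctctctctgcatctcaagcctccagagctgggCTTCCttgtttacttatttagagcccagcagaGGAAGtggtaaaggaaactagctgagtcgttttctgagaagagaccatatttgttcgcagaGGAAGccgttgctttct
CD3D, chr11:118342706-118342955, minus strand: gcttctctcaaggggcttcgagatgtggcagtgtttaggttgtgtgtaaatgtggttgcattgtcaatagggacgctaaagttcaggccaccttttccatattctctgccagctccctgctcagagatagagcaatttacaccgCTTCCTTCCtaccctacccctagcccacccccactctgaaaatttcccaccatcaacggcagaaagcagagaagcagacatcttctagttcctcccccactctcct
LCK site 1, chr1:32251015-32251264, plus strand: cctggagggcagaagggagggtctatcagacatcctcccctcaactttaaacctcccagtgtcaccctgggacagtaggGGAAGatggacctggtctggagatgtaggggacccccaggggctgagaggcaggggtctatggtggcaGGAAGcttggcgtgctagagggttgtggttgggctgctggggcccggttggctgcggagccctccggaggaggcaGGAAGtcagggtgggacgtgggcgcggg
LCK site 2, chr1:32273871-32274120, plus strand: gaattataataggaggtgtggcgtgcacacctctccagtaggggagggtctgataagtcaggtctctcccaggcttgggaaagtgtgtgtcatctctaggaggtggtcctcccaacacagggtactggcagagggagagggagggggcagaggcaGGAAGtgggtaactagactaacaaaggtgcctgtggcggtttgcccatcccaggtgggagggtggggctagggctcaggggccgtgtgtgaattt
The LCP2 window held 3 GGAAG cores, the CD3D window 2, the upstream LCK window 3 and the downstream LCK window 1. The RUNX core TGTGGT occurred 1 time each in the CD3D and the upstream LCK window, and not in the other 2. Of 35116 RefSeq windows of 250 bases, 65.1% held GGAAG and 11.0% held TGTGGT on either strand, so that a GGAAG core is common. LCK has a proximal promoter used in thymocytes and a distal one, and gene-level counts do not separate transcripts from them. GENCODE 29 places the LCP2 gene end further upstream than the RefSeq start site, so the LCP2 window lies within the GENCODE gene.

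STAG2 itself, as TMM-scaled CPM (reads of a gene relative to the library's scaled total) over the 7 libraries, was 256, 180 and 195 in knockout PF-382 cells, against 334 and 567 in wild-type cells. In MOLT-14 it was 137 CPM with STAG2 and 1.15 CPM (56 counts) with the empty vector. The libraries differed by group in depth: 65262329, 93970572 and 81304948 counts in knockout cells, 32609485 and 33145516 in wild-type cells, 45013450 with STAG2 and 38678382 with the empty vector. The summed CPM of 6 T-lineage markers, CD3E among them, was 1157.02 to 1460.82 in knockout and 1301.29 to 1492.82 in wild-type PF-382 cells. It was 1408.22 and 1268.85 in MOLT-14 with STAG2 and with the empty vector. These sums hide differences between markers, and CD2 reached at most 3.58 CPM. CD7 had 11.0 to 38.8 CPM in PF-382, against 425 and 415 CPM in MOLT-14 with STAG2 and with the empty vector. Between the lines 2 markers, CD3E and BCL11B, were called higher in PF-382 and CD7 lower, against 27% and 28.4% of all genes tested. Of 6 B-lineage markers (4.42 to 42.5 CPM summed over the 7 libraries) CD79A led and MS4A1 had no count in any library, and 6 natural killer markers summed to 13.5 to 23.5 CPM. Most of that last sum was NCAM1 in PF-382 (12.9 to 17.6 CPM, against 1.41 and 1.84 in MOLT-14). In MOLT-14 most of it was NKG7 (21.4 and 19.6 CPM, against 0.0655 to 0.728 in PF-382). Of 4 natural killer markers tested between the lines, 1 was called higher in PF-382 and 2 lower, against 27% and 28.4% of all genes tested.

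Within a library, CD3D and LCK stood well above the other members. The levels compared here are deposited TPM (relative transcript abundances), which take account of gene length. CD3D had 455, 377 and 395 TPM in knockout PF-382 cells, against 267 and 514 TPM in wild-type cells, and it had 369 TPM in MOLT-14 with STAG2 and 496 TPM with the empty vector. LCK had 325, 291 and 346 TPM in knockout cells, against 271 and 359 TPM in wild-type cells, and 285 TPM with STAG2 and 317 TPM with the empty vector in MOLT-14. CD3D was first and LCK second in every library except wild type 1, where LCK was first by a margin of 271 to 267 TPM, and CD3E ranked 3 in all 7. The zeta chain CD247 and the adaptor LCP2 shared the lowest places in each PF-382 wild-type library, with 20.1 and 13.9 TPM for CD247 and 15.7 and 19.6 TPM for LCP2. Places 4 to 9 changed hands between libraries, and CD3G ranked from 4 in knockout 1 to 9 in MOLT-14 with STAG2.

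**Figure D1:**
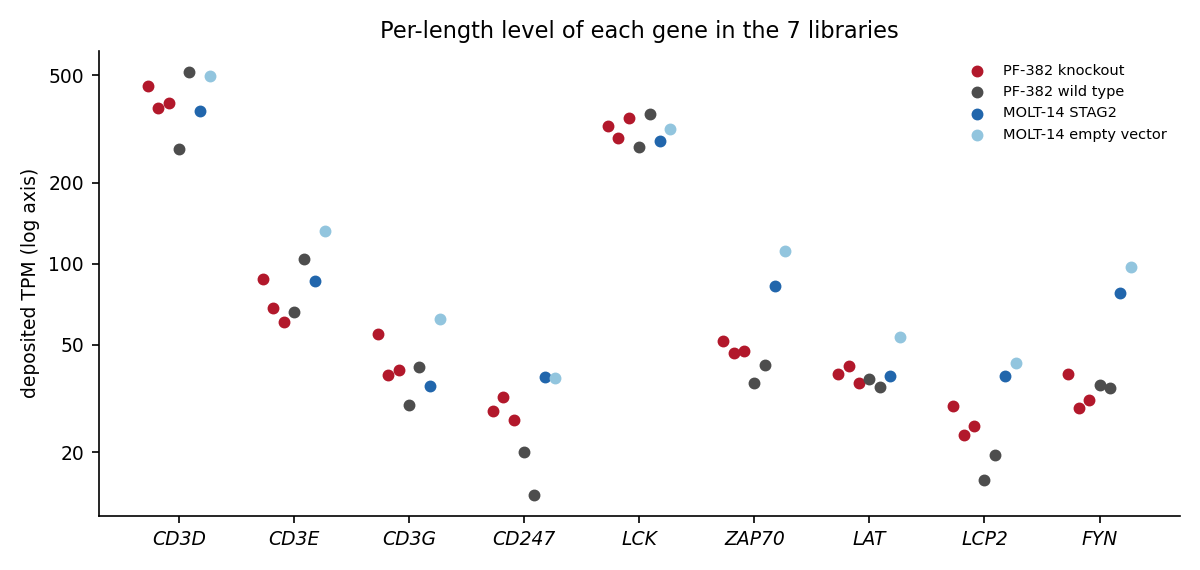
Deposited TPM (log axis) of the 9 genes in each of the 7 libraries, 1 point per library. CD3D and LCK lie between 267 and 514 TPM in every library, CD3E follows at 60.8 to 132 TPM, and the heights of 1 gene in different libraries are not on a shared scale, because small RNA genes take 33.6% to 74.6% of the TPM.

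In PF-382, 1 of these genes differed between knockout and wild type beyond the threshold. In the reported fit LCP2, the adaptor SLP-76, was higher in knockout than in wild-type cells, and the other 8 members did not pass the test. Which members were called depended on the processing. At an adjusted p of 0.05 (edgeR quasi-likelihood test, Benjamini-Hochberg over 17442 genes) 1 member was higher and 0 were lower, which is 11.1% of the members, against 30.4% of all genes tested (15.8% higher, 14.6% lower). Those calls were 2763 higher and 2548 lower, against 1824 and 3566 with upper-quartile scaling and 1919 and 1174 with limma on TPM. The median log2 change of the members was -0.07 and that of all genes tested was -0.02. In RNA from a bulk culture, a change in the number of cells with a transcript and a change in its amount per cell cannot be told apart.

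The CPM values of this comparison are scaled over the 5 PF-382 libraries. LCP2 had 84.3, 75.2 and 84.6 CPM in knockout cells, against 62.7 and 55.5 CPM in wild-type cells. Every knockout library was above both wild-type libraries. The log2 change was 0.46 ± 0.12 (SE), a fold of 1.38, with an adjusted p of 0.0307 in edgeR's quasi-likelihood test. The call was lost in 8 of 12 alternatives, among them each one that left out a knockout library (adjusted p 0.0740 to 0.122). It was also lost in the fit to libraries whose titles carry the code SA, with 1 knockout library (log2 change 0.49). Over the alternatives the log2 change stayed between 0.29 and 0.56. Both wild-type libraries carry SA and the other knockout libraries carry SB, so this code is partly confounded with the knockout, and the labels do not explain it. In the same libraries the summed CPM of 6 myeloid markers, scaled over all 7 libraries, was 0.835, 1.41 and 0.533 in knockout cells, against 10.3 and 20.2 in wild-type cells, nearly all of it from ITGAM, which encodes an integrin chain. CD14, LYZ, CSF1R, CD33 and MPO were at or near 0 in each PF-382 library. The part of this marker difference, and of the depth difference, in the LCP2 result was not tested. The LCP2 gene overlaps C5orf58 on the opposite strand, which had 0 counts in every library.

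Of the CD3 chains, CD3D had 388, 366 and 375 CPM in knockout cells, against 414 and 663 CPM in wild-type cells. The knockout libraries agreed closely and lay below both wild-type libraries, which differed 1.60-fold from each other. The log2 change was -0.52 ± 0.20 (95% interval -1.01 to -0.03) and the adjusted p was 0.0992 in edgeR. CD3E, the chain that pairs with both CD3D and CD3G, had 217, 191 and 180 CPM in knockout cells, against 235 and 283 CPM in wild-type cells. Again the groups did not overlap. The log2 change was -0.40 ± 0.14 (-0.75 to -0.06) and the adjusted p was 0.0763 in edgeR. CD3D, CD3E and LCP2 were the 3 members whose groups did not overlap and also the 3 with an unadjusted p under 0.05, against 59.8% and 44.4% of all genes tested. CD3E was called lower in 4 of 12 alternatives and CD3D in 2 of 12. With upper-quartile scaling CD3D changed by -0.67 (adjusted p 0.0370 in edgeR) and CD3E by -0.56 (0.0207). CD3E was also called with at least 1 CPM in 2 libraries (0.0391) and with protein-coding genes only (0.0404). In these scaling and filter settings LCP2 was not called (0.0516 to 0.109). In limma on log2(TPM + 1) CD3D changed by 0.14 and CD3E by -0.22, and neither was called.

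CD3G had 210, 168 and 184 CPM in knockout cells, against 152 and 173 CPM in wild-type cells. The groups overlapped, and the log2 change of 0.20 ± 0.14 had the opposite sign to those of CD3D and CD3E (adjusted p 0.312 in edgeR). CD247 had 76.1, 96.1 and 83.4 CPM in knockout cells, against 77.0 and 40.4 CPM in wild-type cells. The wild-type libraries differed 1.91-fold, more than for any other member. The log2 change was 0.54 ± 0.27 (-0.11 to 1.19, adjusted p 0.171 in edgeR). Without wild type 1 the CD247 change was 1.09 (adjusted p 0.00445), the CD3D change was -0.80 (0.00274) and the CD3E change was -0.52 (0.0254). Without wild type 2 the CD247 change was 0.17 (adjusted p 0.414), the CD3D change was -0.11 (0.428) and the CD3E change was -0.24 (0.210).

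None of the 3 kinases was called. LCK had 981, 994 and 1241 CPM in knockout cells, against 1106 and 1138 CPM in wild-type cells. Both wild-type values fell inside the knockout range, and the log2 change was -0.07 ± 0.16 (-0.44 to 0.31, adjusted p 0.774 in edgeR). ZAP70 had 187, 193 and 207 CPM in knockout cells, against 195 and 168 CPM in wild-type cells, with a log2 change of 0.11 ± 0.13 (-0.19 to 0.41, adjusted p 0.521 in edgeR). FYN had 101, 87.0 and 99.0 CPM in knockout cells, against 133 and 92.1 CPM in wild-type cells. Wild type 1 was the highest FYN library, and the log2 change was -0.24 ± 0.18 (-0.66 to 0.18, adjusted p 0.339 in edgeR). Without wild type 2 the FYN change was -0.46 (adjusted p 0.0327), and without wild type 1 it was 0.07. The adaptor LAT had 71.5, 88.9 and 83.2 CPM in knockout cells, against 100.1 and 70.9 CPM in wild-type cells, a log2 change of -0.07 ± 0.18 (-0.50 to 0.35, adjusted p 0.772 in edgeR). The LAT groups overlapped fully. The intervals of LCK, ZAP70, FYN, LAT and CD3G span folds of 0.634 to 1.46, so equal levels are not shown.

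**Figure D2:**
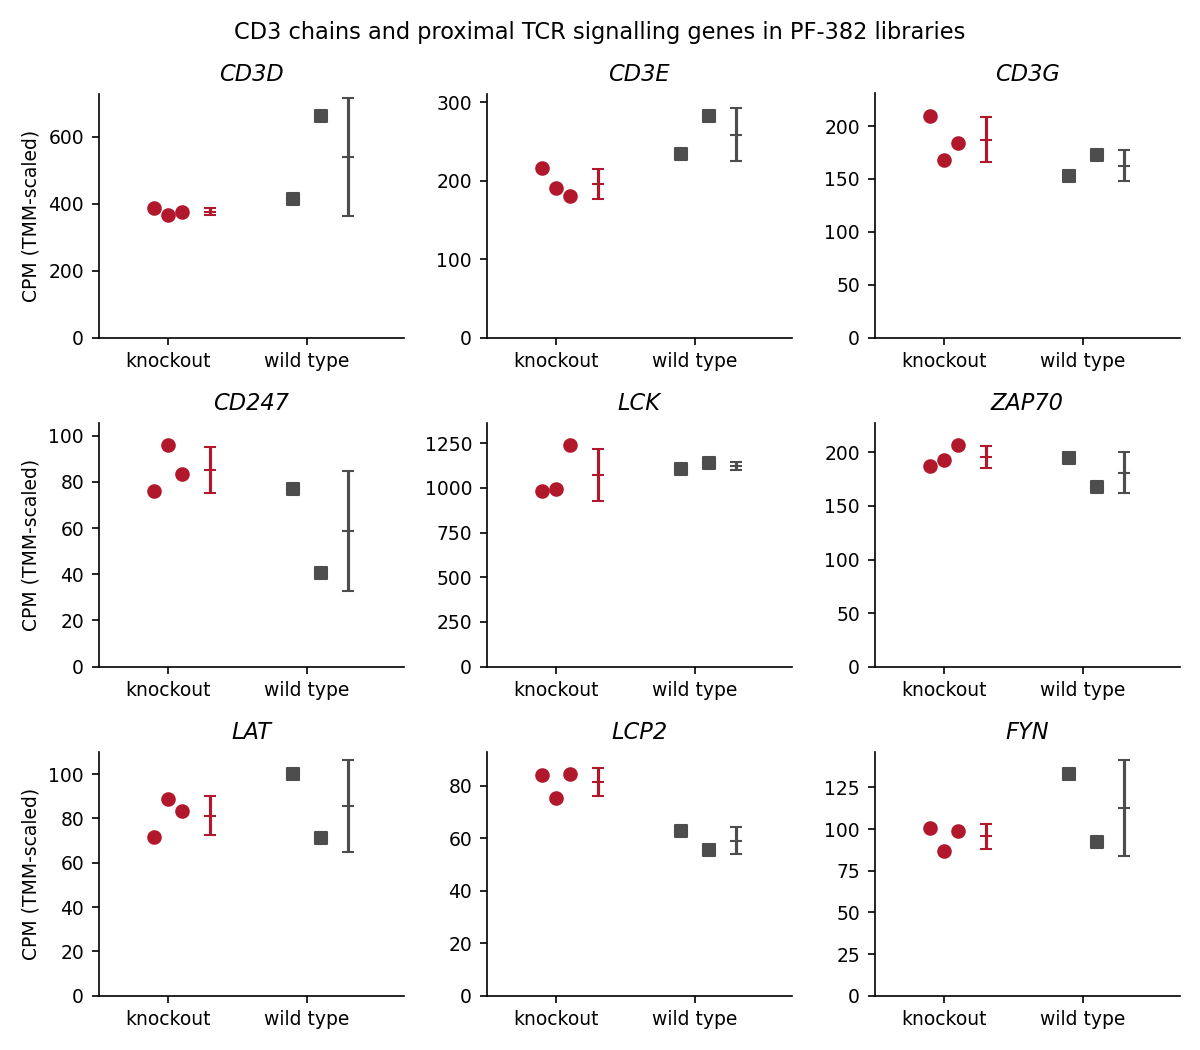
CPM (scaled by TMM over the PF-382 libraries) of each gene in the 3 knockout and 2 wild-type libraries, with the mean ± SD beside the points and axes from 0. LCP2 is the panel with knockout above wild type throughout (81.4 ± 5.34 against 59.1 ± 5.10 CPM), CD3D and CD3E show the opposite order, and the remaining panels overlap.

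In MOLT-14, which had 1 library per arm and so no test, all 9 genes were within 2-fold of each other in the STAG2 and the empty-vector library. Past 2-fold were 0 of the 9 members, against 1.94% of 11442 genes that reached 5 CPM in 1 or both libraries (1.17% higher, 0.769% lower). The median log2 ratio of the members was 0.12 and that of all these genes was 0.05. CPM values here are scaled over the 2 MOLT-14 libraries, and intervals cover counting error only.

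The largest ratio was that of CD247, with 98.2 CPM with STAG2 (4131 counts), against 64.9 CPM with the empty vector (2685 counts), a log2 ratio of 0.60 (95% interval 0.53 to 0.67). LCP2 had 85.4 CPM with STAG2, against 62.1 CPM with the empty vector, a log2 ratio of 0.46 (0.39 to 0.53). LCK had 775 CPM with STAG2, against 580.2 CPM with the empty vector, a log2 ratio of 0.42 (0.39 to 0.44). In absolute size these 3 ratios were at least as large as those of 92.9%, 86.8% and 84.1% of the genes. The CD3 cluster differed little. CD3D had 346 CPM with STAG2, against 361 CPM with the empty vector (log2 ratio -0.06), CD3E had 217 against 223 CPM (-0.04) and CD3G had 102 against 109 CPM (-0.10). ZAP70 had 296 CPM with STAG2, against 273 CPM with the empty vector (0.12), LAT had 73.1 against 67.1 CPM (0.12) and FYN had 145 against 127 CPM (0.19). With the deposited TPM in place of CPM the members' ratios ran from -0.81 to 0.01, where the median of all genes was -0.458. Of the 6 ratios above 0 in CPM, that of CD247 alone stayed above 0.

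In CPM, LCP2 thus had its higher values in the knockout libraries of PF-382 and in the STAG2 library of MOLT-14. In TPM the MOLT-14 log2 ratio was -0.16, which is above the median of all genes on that scale (-0.458). The difference between the lines of the effect of low against high STAG2, knockout minus wild type set against empty vector minus STAG2, was 0.93 ± 0.22 on the log2 scale for LCP2 (adjusted p 0.0906 in edgeR over 20100 genes) and 1.14 ± 0.50 for CD247 (0.250). No member passed this test, against 0.607% of all genes, and it assumes that the MOLT-14 libraries vary like those of PF-382.

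**Figure D3:**
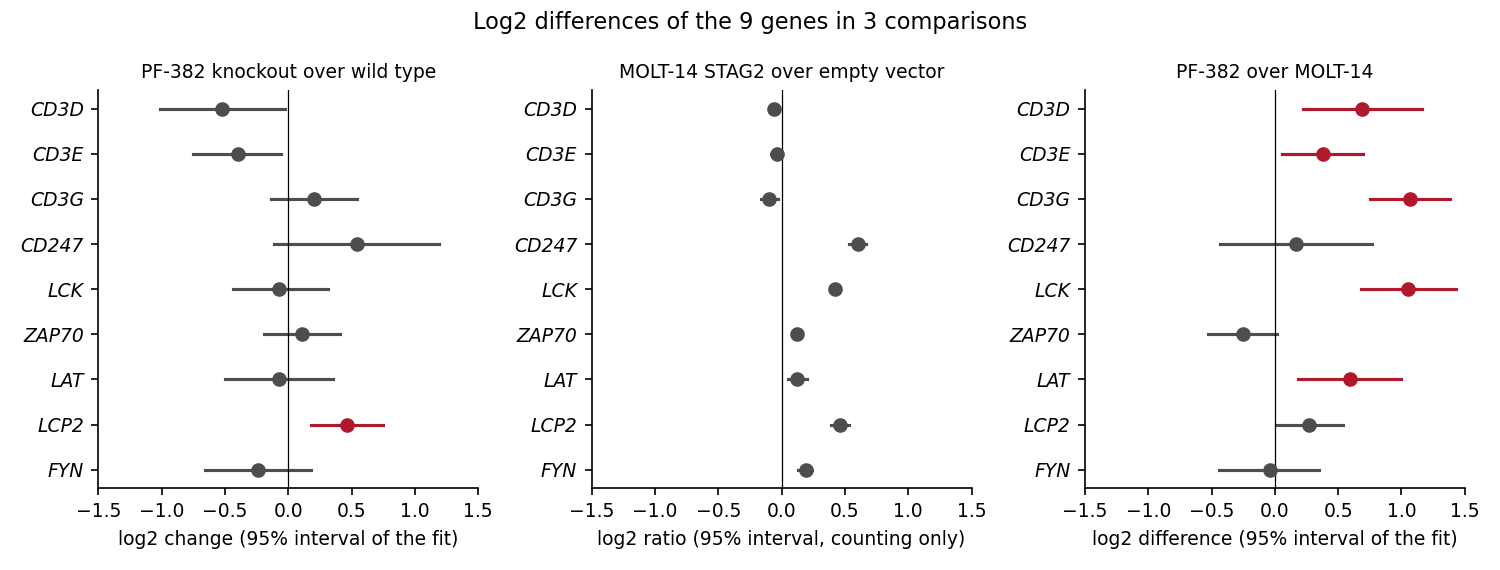
Log2 differences of the 9 genes in 3 comparisons: points with 95% intervals from the edgeR fits (left and right) or from counting error alone (middle), red where called. LCP2 is called in the left panel (0.46), no gene passes 2-fold in the middle one, and CD3D, CD3E, CD3G, LCK and LAT are called in the right one (0.38 to 1.07).

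Between the lines, 5 of the 9 members were higher in PF-382 than in MOLT-14: the 3 clustered CD3 genes, the kinase LCK and the adaptor LAT. None was called lower. All 5 were called at an adjusted p of 0.05 in edgeR's quasi-likelihood test over 20100 genes, a share of 55.6% of the members, against 55.4% of all genes tested (27% higher, 28.4% lower). The members' median log2 difference was 0.38 and that of all genes tested was -0.048. CPM in this comparison are scaled over all 7 libraries, and each line is 1 line, so that the differences are between these cultures.

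CD3G, the gamma chain, had 225, 182, 199, 162 and 182 CPM in the 3 knockout and 2 wild-type PF-382 libraries, against 85.6 and 92.7 CPM in MOLT-14 with STAG2 and with the empty vector. Each PF-382 library exceeded both MOLT-14 libraries, and the log2 difference was 1.07 ± 0.13 (adjusted p 0.00106 in edgeR). LCK had 1053, 1075, 1343, 1175 and 1201 CPM in the same PF-382 libraries, against 649 and 492 CPM in MOLT-14. The lines were again apart, with a log2 difference of 1.05 ± 0.16 (adjusted p 0.00204 in edgeR). These 2 calls held in 12 of 12 alternatives, none of which used TPM. In TPM, which is not on a shared scale between libraries, the lines overlapped for both genes. CD3G had 29.8 to 54.8 TPM in PF-382, against 35.2 and 62.3 TPM in MOLT-14 with STAG2 and with the empty vector. LCK had 271 to 359 TPM in PF-382, against 285 and 317 TPM in MOLT-14. CD3D had 416, 396, 406, 439 and 699.8 CPM in PF-382, against 290.1 and 306 CPM in MOLT-14, a log2 difference of 0.69 ± 0.19 (adjusted p 0.0230 in edgeR). The highest value, in wild type 2, stood well above the other 4 PF-382 libraries.

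LAT had 76.8, 96.1, 90.1, 106 and 74.9 CPM in PF-382, against 61.2 and 56.9 CPM in MOLT-14, a log2 difference of 0.59 ± 0.17 (adjusted p 0.0250 in edgeR). CD3E had 233, 207, 195, 249 and 299 CPM in PF-382, against 181 and 189 CPM in MOLT-14, a log2 difference of 0.38 ± 0.13 (adjusted p 0.0468 in edgeR). The lines did not overlap for either gene, but the lowest PF-382 value of CD3E was close to the higher MOLT-14 one. The calls of CD3D and LAT held in 7 of 12 alternatives each and that of CD3E in 2 of 12. All 3 were lost without knockout 2 and without knockout 3, with adjusted p of 0.0524 to 0.109.

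ZAP70 ran the other way, with 201, 209, 224, 207 and 177 CPM in PF-382, against 248 and 231 CPM in MOLT-14. Each PF-382 library was below both MOLT-14 libraries, and the log2 difference was -0.25 ± 0.11 (adjusted p 0.104 in edgeR). Without wild type 1 it was -0.33 (0.0172). In all, 6 members had lines that did not overlap, against 56.5% of all genes tested. The LCP2, CD247 and FYN values of the 2 lines overlapped. LCP2 differed by 0.27 ± 0.11 (adjusted p 0.0731 in edgeR), CD247 by 0.17 ± 0.25 (0.590) and FYN by -0.04 ± 0.16 (0.832). As a ratio of TPM within each library, which needs no scaling between libraries, LCK over FYN was 8.34, 9.97, 11.0, 7.64 and 10.4 in PF-382, against 3.65 and 3.25 in MOLT-14 with STAG2 and with the empty vector. LCK over ZAP70 was 6.31, 6.24, 7.29, 7.52 and 8.53 in PF-382, against 3.44 and 2.83 in MOLT-14. Both ratios were higher in every PF-382 library than in either MOLT-14 library, and so was LAT over LCP2. The lines overlapped for the other ratios computed, which were CD3D over CD3E, CD3D over CD3G and CD3D over CD247. No share of all gene pairs was computed, so it is not known how common such separation is.

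The chains that the CD3 dimers carry also differed between the lines. Of 7 TCR and pre-TCR chain genes, 2 were called higher and 4 lower in PF-382, where 55.4% of all genes tested were called. TRBC1, a beta constant gene, had 0.0410 to 0.164 CPM in the PF-382 libraries, against 721 and 631 CPM in MOLT-14 with STAG2 and with the empty vector (adjusted p 8.50e-06 in edgeR). Its near-identical copy TRBC2 had 1614.6 to 2724.7 CPM in PF-382, against 129 and 121 CPM in MOLT-14, a log2 difference of 4.04 ± 0.31, and reads of this pair may be split between them. TRDC, the delta constant gene, had 0 counts in all 5 PF-382 libraries, against 57.8 and 62.2 CPM in MOLT-14, so it was at least 618-fold lower in PF-382 at a floor of 3 counts in 1 library, taken as the highest among the PF-382 libraries (0.0972 CPM). PTCRA, the pre-TCR alpha chain, had 59.9, 30.4, 78.4, 40.8 and 54.2 CPM in PF-382, against 0.179 and 0.0820 CPM in MOLT-14, a log2 difference of 8.71 ± 0.64. In PF-382 knockout over wild type, 0 of the 5 chain genes tested were called in either direction.

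Among 10 other kinases of the Src, Syk and Tec families, 4 of the 8 tested were called higher and 4 lower in PF-382 than in MOLT-14, against 27% and 28.4% of all genes tested. SYK, the ZAP70 relative used by the pre-TCR, had 79.6, 24.6, 90.9, 27.4 and 14.6 CPM in PF-382, against 0.0199 and 0.0410 CPM in MOLT-14 (adjusted p 0.000590 in edgeR). BLK, a Src kinase best known from B cells and gamma delta T cells, had 0 counts in PF-382, against 41.0 and 36.6 CPM in MOLT-14, at least 399-fold lower in PF-382 at the same floor. TXK, a Tec kinase, had at most 0.0938 CPM in PF-382, against 4.56 and 2.25 CPM in MOLT-14 (adjusted p 0.000192 in edgeR). Scaled over the MOLT-14 pair, TXK had 5.44 CPM with STAG2, against 2.66 CPM with the empty vector (log2 ratio 1.02, past 2-fold). It reached the minimum of 5 CPM only in the STAG2 library, so it entered the 2-fold count only through the library where it was higher. In PF-382, 2 of 6 tested kinases were lower in knockout than in wild-type cells, against 14.6% of all genes tested: TEC by a log2 change of -1.94 ± 0.42 (adjusted p 0.0183 in edgeR) and the Src relative YES1 by -0.57 ± 0.13 (0.0214).

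**Figure D4:**
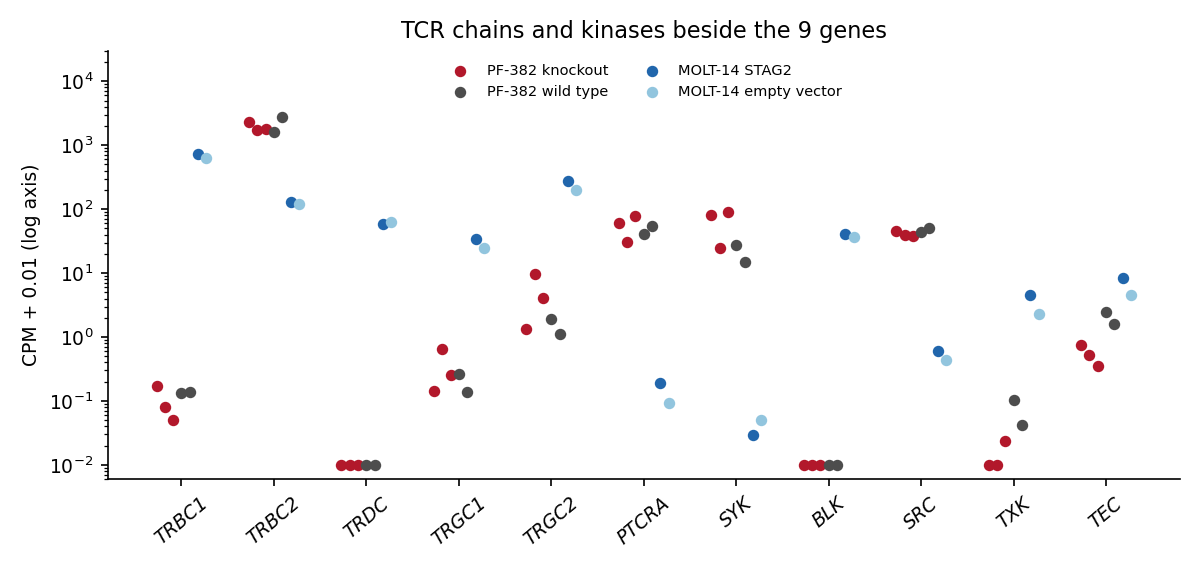
CPM + 0.01 (log axis, scaled over 7 libraries) of TCR chains and kinases, 1 point per library, with genes at 0 drawn at the bottom. TRBC2, PTCRA, SYK and SRC are high in PF-382 and low in MOLT-14, and TRBC1, TRDC, TRGC1, TRGC2, BLK and TXK show the reverse order.

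Of 17 adaptors and effectors below LAT and SLP-76, 3 were lower and 0 higher in knockout than in wild-type PF-382 cells, against 14.6% and 15.8% of all genes tested. RASGRP1, which activates RAS below LAT, had 12.0, 7.64 and 9.88 CPM in knockout cells, against 41.8 and 38.5 CPM in wild-type cells. The groups were far apart, with a log2 change of -2.03 ± 0.20 (adjusted p 0.00276 in edgeR). The adaptor NCK1 changed by -0.73 ± 0.18 (0.0256) and PRKCQ, the protein kinase C theta of the synapse, by -0.43 ± 0.13 (0.0465). Between the lines 7 of the 17 were higher and 2 lower in PF-382, against 27% and 28.4%. THEMIS, a thymocyte adaptor that binds GRB2, had 71.2, 24.4, 89.3, 116 and 51.8 CPM in PF-382, against 0.0995 and 0.0820 CPM in MOLT-14, FYB1 differed by 3.88 ± 0.50 and GRAP by 1.20 ± 0.23 on the log2 scale.

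Of 16 negative regulators, 3 were higher and 1 lower in knockout than in wild-type cells, against 15.8% and 14.6% of all genes tested, so that neither count is a result about the list. CSK, the kinase that phosphorylates the inhibitory tail tyrosine of LCK, had 75.5, 77.4 and 83.1 CPM in knockout cells, against 58.3 and 50.7 CPM in wild-type cells, a log2 change of 0.53 ± 0.12 (adjusted p 0.0197 in edgeR). The adaptors SLA and SLA2, which promote removal of TCR components, changed by 1.04 ± 0.30 (0.0401) and 0.92 ± 0.28 (0.0491). PTPN6, the phosphatase SHP-1, changed by -0.64 ± 0.17 (0.0352). SIT1, a transmembrane adaptor, was past 2-fold higher with STAG2 than with the empty vector in MOLT-14 (21.5 against 9.78 CPM). Between the lines 4 of the 16 were called higher and 6 lower in PF-382, against 27% and 28.4% of all genes tested. The largest differences were those of SIT1 (2.02 ± 0.43), DOK2 (1.90 ± 0.40) and PAG1 (-1.61 ± 0.29).

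Among 8 coreceptors and costimulators, 1 was higher and 1 lower in knockout than in wild-type PF-382 cells, against 15.8% and 14.6% of all genes tested. CD8B, a coreceptor chain that binds LCK through its CD8A partner, had 2.64, 2.65 and 2.57 CPM in knockout cells, against 0.294 and 0.153 CPM in wild-type cells (log2 change 3.53 ± 0.38, adjusted p 0.00317 in edgeR). CD5, which dampens TCR signals, had 49.3, 48.6 and 54.3 CPM in knockout cells, against 105 and 91.2 CPM in wild-type cells (-0.95 ± 0.12, adjusted p 0.00410 in edgeR). Between the lines 2 of the 8 were called higher and 2 lower in PF-382, against 27% and 28.4% of all genes tested. CD28, the main costimulator, had 2.51, 2.44, 4.87, 1.63 and 9.29 CPM in PF-382, against 306 and 239 CPM in MOLT-14. On the log2 scale CD8A differed by 4.09 ± 0.56, CD4 by 3.42 ± 0.34 and PTPRC by -1.57 ± 0.47 (adjusted p 0.0280 in edgeR). Over all 58 genes of these 5 lists, 52 were tested in PF-382, of which 4 were higher and 7 lower in knockout cells, with a median log2 change of -0.03, where 30.4% of all genes tested were called. Between the lines 19 of 56 were higher and 18 lower in PF-382, against 55.4% of all genes called. In MOLT-14 2 of 45 were past 2-fold, both higher with STAG2, against 1.94%, and TXK among them reached 5 CPM only with STAG2.

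Around the CD3 cluster, 15 other protein-coding genes lie within 250 kb in GENCODE 29, and 12 of them were tested. In knockout over wild type 1 was higher and 0 lower, against 30.4% of all genes called. UBE4A, a ubiquitin ligase gene beside CD3G, had 120.2, 130.1 and 113 CPM in knockout cells, against 81.4 and 66.6 CPM in wild-type cells, with a log2 change of 0.71 ± 0.14 (adjusted p 0.0127 in edgeR). Between the lines 5 of the 12 neighbours were higher and 2 lower in PF-382, against 55.4% of all genes called. MPZL2, which encodes an adhesion protein, differed by 5.32 ± 0.41, with 1.88 to 3.21 CPM in PF-382. In MOLT-14 it had 0.0398 and 0.0820 CPM with STAG2 and with the empty vector, where 3 counts are 0.0597 and 0.0615 CPM. The size of this difference thus rests on very few reads in MOLT-14. ATP5MG, which encodes a subunit of mitochondrial ATP synthase, differed by 1.01 ± 0.12, while KMT2A differed by -0.69 ± 0.23.

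**Figure D5:**
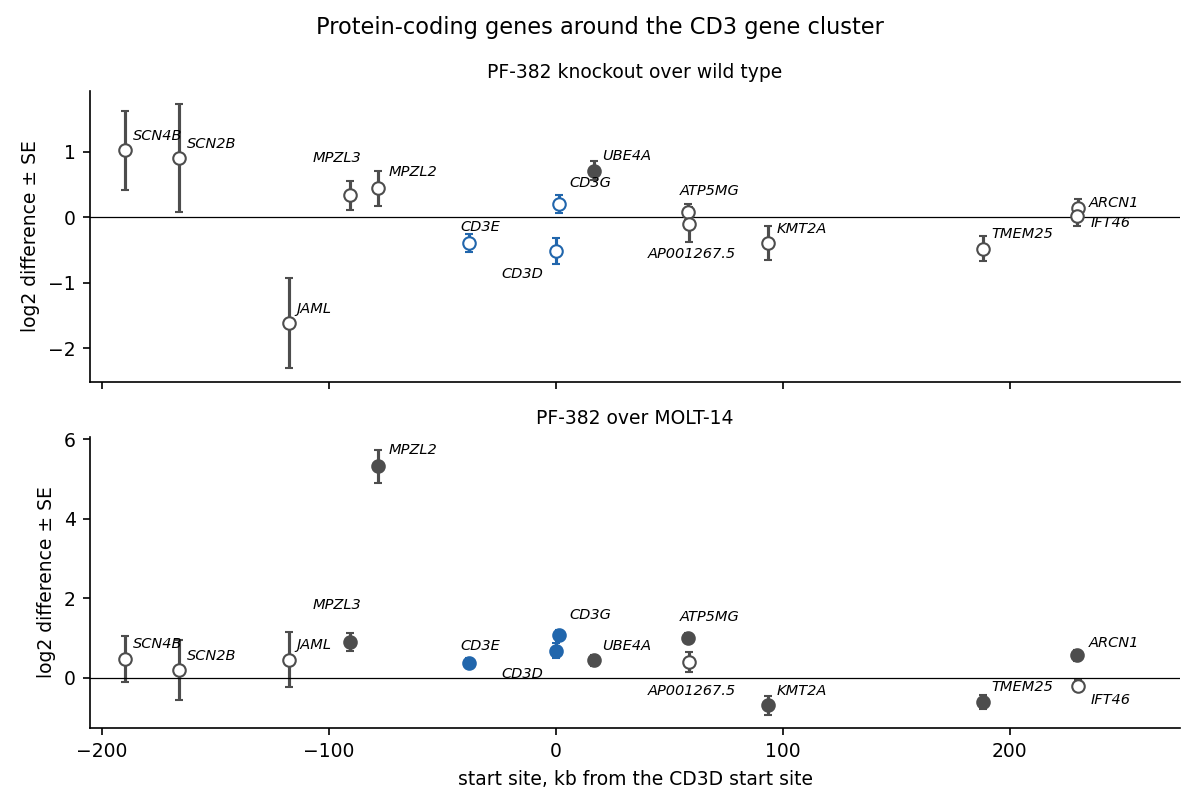
Log2 difference ± SE of protein-coding genes against the distance of their start sites from that of CD3D (kb), with the CD3 genes in blue, the others in grey and filled points where the adjusted p is under 0.05. Only UBE4A (0.71) is filled in the upper panel. In the lower one the filled points include CD3D, CD3E and CD3G and range from -0.69 for KMT2A to 5.32 for MPZL2, which had very few reads in MOLT-14.

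The genes whose log2 CPM ran most like the mean profile of CD3D, CD3E and CD3G over the 7 libraries, among 10137 protein-coding genes averaging at least 5 CPM, were SEC24B, HOOK3, MANF, PAK2 and TAB3, with Pearson's r of 0.995 to 0.998. CD3D, CD3E and CD3G themselves had r of 0.93, 0.87 and 0.89 with this mean, so the 5 genes follow the mean more closely than any of the 3 does. The 7 points are 5 libraries of 1 line and 2 of the other, so r is a description with no test. MANF had 82.7, 71.9, 74.0, 71.2 and 119 CPM in PF-382, against 31.9 and 35.3 CPM in MOLT-14. Like CD3D it was highest in wild type 2.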

How the data were processed

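Reads of 7 total RNA libraries were processed by the authors with STAR and RSEM on GRCh38 (hg38), per the submitters' processing notes; versions, annotation release and strand setting are not given in the sources used here. The authors' files hold expected counts, that is RSEM's raw estimates for each gene, used for all tests. The authors also deposited TPM and FPKM, and FPKM was not used here. TPM was used within libraries, and in 1 alternative each for knockout over wild type and for MOLT-14. For CD3G and LCK it was also given for both lines. Of 60754 features, 92 spike-ins were left out.

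These estimates, rounded to integers, were analysed with edgeR 4.0.16 under R 4.3.3 (TMM, filterByExpr, quasi-likelihood test, two-sided, Benjamini-Hochberg over all genes tested, threshold 0.05). Knockout against wild type used the 5 PF-382 libraries alone. The lines were compared over all 7, with 4 group means and the 2 groups of a line weighted equally, so the spread comes from PF-382. MOLT-14 ratios used a prior count of 2 and exact binomial intervals at 95%. The MOLT-14 intervals and the floors of 3 counts (0.0347 to 0.0972 CPM) cover counting error only. Intervals of the edgeR fits include the spread between libraries. Standard errors were derived from the log2 change and the F statistic. Alternatives included DESeq2 1.42.0 and limma 3.58.1 on log2(TPM + 1).

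Members and lists were chosen with earlier results of these data known. Named genes were all members, and from each list up to 4 called genes by adjusted p (knockout) and up to 3 by size (between lines, and past 2-fold in MOLT-14), the CD3 neighbours and 5 genes of like profile; TRBC2 and SRC, and the CD3 neighbours singled out, were chosen after their values were seen. Gene positions are from GENCODE 29 and promoter windows from RefSeq (GRCh38.p14); their versions of a gene can differ from those of the files.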

Additional observations from a re-analysis of the deposited data

How the results depend on the processing

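No paired analysis was possible because the titles give library codes and no replicate numbers shared between groups. For the members, 83 of 108 alternative values of knockout over wild type kept their direction and their side of the threshold, 8 calls were lost, 8 gained and 9 values changed sign; between the lines these were 81, 20, 4 and 3 of 108. In MOLT-14, 29 of 45 values stayed within their counting interval and 16 moved beyond it. The 29 include every value at a minimum of 1 CPM, which alters the genes counted and cannot alter a ratio. They also include every value at a prior count of 0.5, which hardly acts on genes with this many counts. With TPM every member moved beyond its interval. The causes were not tested. Under upper-quartile scaling the all-gene median was -0.184, against -0.02 in the reported fit, and 1824 genes were higher and 3566 lower in knockout cells. There 0 members were higher and 2, CD3D and CD3E, were lower, and ZAP70 changed sign (-0.05). With at least 1 CPM in 2 libraries, or protein-coding genes only, 0 members were higher and 1, CD3E, was lower. With no filter LCK was 0.01 and LAT 0.00. With limma on log2(TPM + 1), 3093 genes were called, 1174 lower, with 0 members higher, and CD3D (0.14), LCK (0.04) and LAT (0.11) changed sign. With SA libraries only, 306 genes were called (114 higher, 192 lower) and 0 members were higher. Leaving out 1 library gave 2271 to 6304 called genes (1194 to 3570 higher, 1077 to 2734 lower), 0 to 2 members higher and 0 to 2 lower, with LAT at -0.28 to 0.21 and FYN at -0.46 to 0.07. Between the lines, line as the only term gave 3 members higher, wild type over empty vector 7176 genes (3613 higher, 3563 lower), 3 members higher and FYN at 0.14, and knockout over STAG2 2 members higher. Upper-quartile scaling gave 3 members higher and 1 lower, and protein-coding genes only 1 lower. Leaving out 1 library gave 2 to 5 members higher and 0 to 1 lower, with CD247 at -0.12 to 0.34 and FYN at -0.21 to 0.06. In MOLT-14 81 genes were past 2-fold higher among protein-coding genes, 335 were past it with TPM (22 higher, 313 lower) and 593 at a minimum of 1 CPM (290 higher, 303 lower). With 3 and 2 libraries of PF-382 and 1 of each MOLT-14 arm, moderate changes of these genes can be missed.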

Other observations

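The wild-type PF-382 libraries differed from each other at some genes next to the TCR. PTPRC, which encodes the phosphatase CD45 that keeps LCK active, had 214, 228 and 209 CPM in knockout cells, against 140.3 and 31.3 CPM in wild-type cells (log2 change 1.34 ± 0.56, adjusted p 0.112 in edgeR's quasi-likelihood test). CD8A had 41.7, 25.7 and 19.4 CPM in knockout cells, against 17.7 and 6.78 CPM in wild-type cells (1.24 ± 0.48, adjusted p 0.0918 in edgeR). For both genes every knockout library was above both wild-type libraries, and wild type 2 was the lowest. The 2 groups did not overlap, in either direction, for 59.8% of all genes tested. These genes were singled out after their values were seen.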
